A study of Mus musculus with 4 samples.

Results

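The genes described here are 10 members of the vascular signalling system, measured in mouse primary osteoblasts: the VEGF family ligands Vegfb, Vegfc and Pgf, the angiopoietins Angpt1 and Angpt2, the angiopoietin-like protein Angptl4, the VEGF receptors Flt1 and Kdr, and the endothelial proteins Pecam1 and Vwf. They were chosen by name among the 34844 gene and transcript names on the array, with earlier results of these data known. All probes annotated to them were taken. This gave 14 of the 55681 non-control probes on the array. Of the 14, 12 were well above background on all 4 arrays, 1 of the 2 Vwf probes was so only on the 2 arrays with BMP2, and 1 of the 3 Flt1 probes was so on none. The other 13 probes entered the test, among 33976 in all.

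The study crossed BMP2, a growth factor that drives bone and cartilage formation, with LOXL2, an enzyme of the extracellular matrix that joins collagen chains. Cells received both proteins, BMP2 alone (200 ng/ml), LOXL2 alone (4 µg/ml) or neither, for 72 h, in medium with 10% serum, and each of the 4 treatments was measured on 1 single-colour Agilent array. The labels call the cells of the 2 arrays with BMP2 osteoblasts and those of the 2 arrays without it pre-osteoblasts, and give no strain, age or number of animals. Nothing states that the cultures came from separate cell preparations, so p-values speak only for these arrays. With 1 array per treatment, their error term holds no spread between replicates. It joins the probe's departure from additive effects of the 2 proteins (1 degree of freedom) with a value pooled over all probes tested (1.69 prior degrees of freedom). The purpose given in the design text is to find regulators of osteoblast differentiation under BMP2.

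VEGF ligands are secreted dimers that bind receptor tyrosine kinases, mainly on endothelial cells. Vegfb and Pgf bind Flt1, while Vegfa binds both Flt1 and Kdr, and Vegfc acts mainly on the lymphatic receptor Flt4 and can also bind Kdr. Angpt1 activates the receptor Tek and steadies vessels, and Angpt2 can oppose it. In bone, osteoblasts and hypertrophic chondrocytes are a source of VEGF, and vessel ingrowth accompanies bone formation.

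All 8 osteoblast markers examined were well above background on all 4 arrays, and 4 rose with BMP2 (5.76% of all probes tested did), with a median change of 1.32. These were Bglap, by 3.60, Ibsp, by 2.53, Sp7, by 2.23, and Alpl, by 1.87 on the log2 scale. The others were not called, and their changes ran from -0.12 for Col1a2 to 0.77 for Spp1. The part of these markers in the changes below was not tested. Spots well above background made up 60.36% to 62.2% of non-control spots, and the 75th percentile of intensity ran from 710.5 to 742.9. Values below are processed intensities, the scanner software's background-subtracted signals, averaged over the spots of a probe. Changes are log2 differences after each array was divided by its 75th percentile, fitted for both proteins at once in an additive limma model, and p-values were adjusted over the 33976 probes by the Benjamini-Hochberg method. Each change compares 2 arrays with a protein and 2 without it. The fit has 1 residual degree of freedom, which is the departure of the 4 arrays from additive effects.

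BMP2 split this group of genes. With BMP2, Vwf, Pgf and Vegfb were higher, while Vegfc, Flt1 and Angpt1 were lower. The other 4 genes, Angpt2, Angptl4, Kdr and Pecam1, did not pass the test. Counted by probe, 4 of 13 rose, against 5.76% of all probes tested, and 4 of 13 fell, against 6.19%. These genes and the lists of other genes were chosen with earlier results of these data known, so such shares are no test of a group. The median change was -0.04 over the 13 probes and 0.02 over all probes tested. One of the 4 that rose, the dimmer Vwf probe, entered the test only through the arrays with BMP2, where it was high; among the 12 probes well above background on every array, 3 rose. After scaling, the arrays with and without BMP2 did not overlap for 11 of 13 member probes, 5 higher and 6 lower. They also did not overlap for 68.7% of all probes tested, 36.8% higher and 31.9% lower, so that lack of overlap was common on these arrays. With no filter on dim probes, limma called no probe on the array for BMP2 (smallest adjusted p = 0.125, with 11949 probes at an unadjusted p under 0.05).

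**Figure D1:**
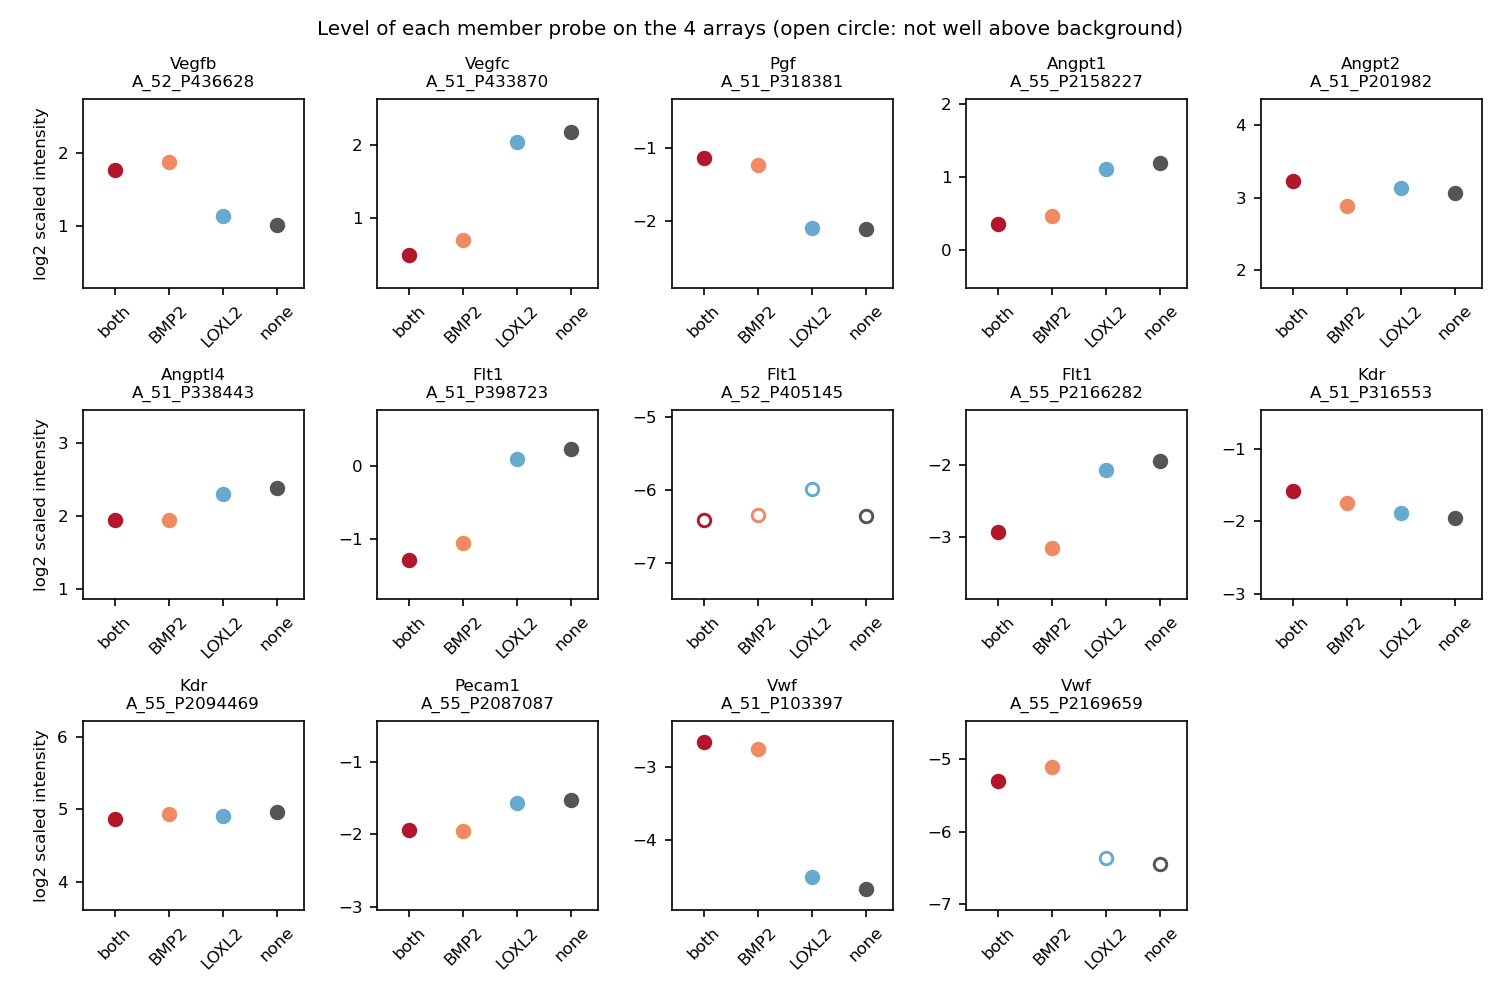
Log2 intensity of the 14 probes after scaling to the 75th percentile, 1 point per array, in the order BMP2 with LOXL2 (both), BMP2, LOXL2 and untreated (none); every panel spans the same height of 2.6 log2 units, around its own level. Vegfc, Angpt1 and 2 Flt1 probes lie lower on the 2 arrays with BMP2, while Vegfb, Pgf and both Vwf probes lie higher.

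Among the ligands of the 10 genes, Vegfc had the largest change. Its intensity was 1176 with BMP2 and 1040 with BMP2 and LOXL2, against 3214 on the untreated array and 2963 with LOXL2. The fitted change was -1.51 ± 0.06 (log2 ± SE, limma adjusted p = 0.0298), a level 2.86-fold lower. The difference was close to the same in each pair of arrays, -1.55 under LOXL2 and -1.48 without it. The probe of Vegfc lies on the plus strand at chr8:55271533-55271592 (mm9), from base 1605 of the transcript NM_009506.

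Pgf, placental growth factor, was higher on both arrays with BMP2. It had an intensity of 308 with BMP2 and 337 with both proteins, against 165 on the untreated array and 169 with LOXL2. Pgf rose by 0.91 ± 0.06 (limma adjusted p = 0.0343), or 1.88-fold. Its 60 probe bases spread over 2003 bases of the minus strand, chr12:86508335-86510337 (mm9), so the probe crosses an intron.

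Vegfb, a ligand of Flt1 linked to fatty acid uptake in endothelium, was also higher. Its intensity was 2653 with BMP2 and 2535 with both proteins, against 1437 untreated and 1587 with LOXL2. Vegfb rose by 0.75 ± 0.09 (limma adjusted p = 0.0472), or 1.68-fold, and the adjusted p was 0.0509 with quantile normalization. Its probe lies at chr19:7057245-7057304 (mm9, minus strand). The difference was 0.64 under LOXL2 and 0.86 without it.

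Of the angiopoietins, Angpt1 was lower and Angpt2 was not called. Angpt1 had an intensity of 1001 with BMP2 and 951 with both proteins, against 1614 untreated and 1552 with LOXL2. It fell by 0.73 ± 0.06 on the log2 scale (limma adjusted p = 0.0366), a level 1.66-fold lower, and its differences were -0.74 under LOXL2 and -0.72 without it. Its probe lies at chr15:42256335-42256394 (mm9, minus strand). For Angpt2 the 4 arrays interleaved. Its intensity was 5350 with BMP2 and 6987 with both proteins, against 5956 untreated and 6367 with LOXL2, so the arrays with BMP2 were both the lowest and the highest. The fitted change was -0.04 ± 0.10 (limma adjusted p = 0.782).

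Angptl4 encodes a secreted inhibitor of lipoprotein lipase that responds to fatty acids and low oxygen. It had an intensity of 2775 with BMP2 and 2861 with both proteins, against 3687 untreated and 3579 with LOXL2. The arrays did not overlap, and the fitted change was -0.40 ± 0.06, which missed the threshold (limma adjusted p = 0.0605). It passed where only probes well above background on all 4 arrays were tested (limma adjusted p = 0.0402), a setting that called 6943 of 31504 probes. It passed in 5 of 9 refits, and with no filter on dim probes its limma adjusted p was 0.1785.

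**Figure D2:**
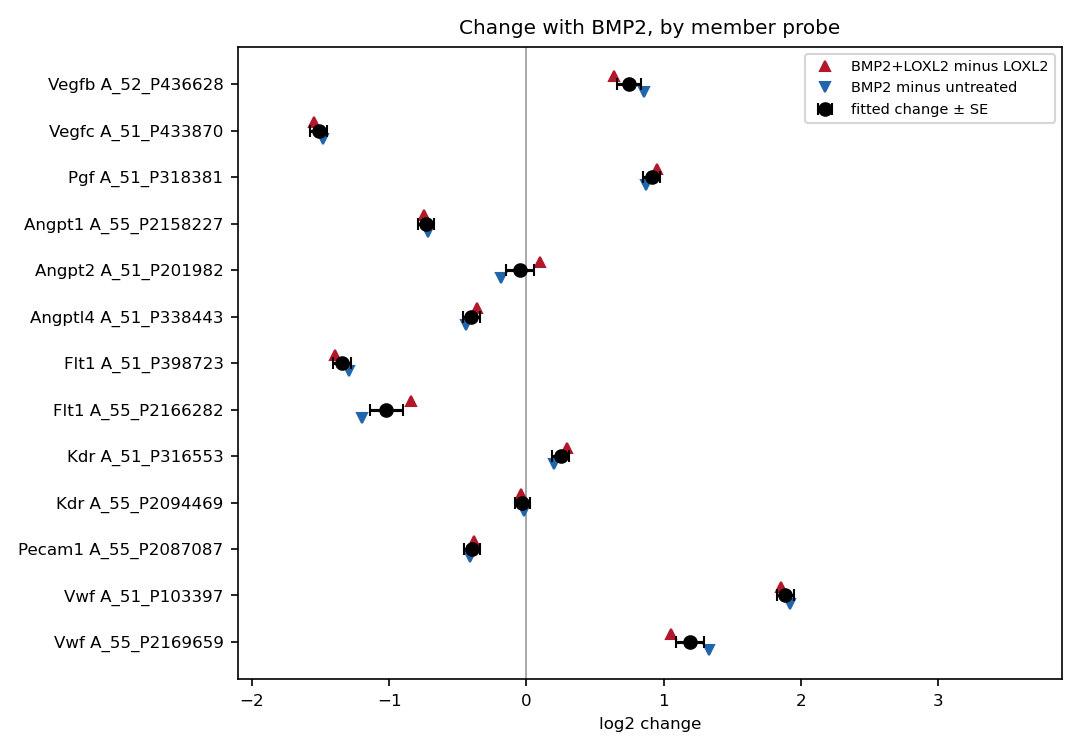
Log2 change with BMP2 for the 13 member probes tested. Black points are fitted changes with SE bars, and triangles are the 2 separate pairs of arrays, BMP2 with LOXL2 minus LOXL2 and BMP2 minus untreated. Changes run from -1.51 for Vegfc to 1.89 for Vwf, and the pairs have the same sign for 12 of the 13 probes.

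Flt1, the receptor for Pgf and Vegfb, also circulates as a soluble form made from shorter transcripts. It was read by 3 probes with different targets, whose first 30 bases are shown because each value belongs to 1 stretch of the gene. All lie on the minus strand of mm9 chromosome 5, and the letters are those of the array design file.
Flt1 A_51_P398723: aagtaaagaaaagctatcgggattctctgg
Flt1 A_55_P2166282: ggagggtactgccgttcctgtgtggtattt
Flt1 A_52_P405145: tccctatcccaactacacattcaatcttct
The first, at chr5:148373791-148373850, was designed on the RefSeq transcript NM_010228. The second, at chr5:148446872-148446931, lies 73081 bases further upstream in the direction of transcription and was designed on an Ensembl transcript of the gene. The third, at chr5:148465976-148466035, was designed on a placental cDNA.

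Both measurable Flt1 probes were lower with BMP2. The RefSeq probe had an intensity of 350 with BMP2 and 303 with both proteins, against 840 untreated and 775 with LOXL2. That probe fell by 1.34 ± 0.06 on the log2 scale (limma adjusted p = 0.0298), a level 2.53-fold lower. The Ensembl probe read 81.9 with BMP2 and 98.1 with both proteins, against 184 untreated and 172 with LOXL2. It fell by 1.02 ± 0.12 (limma adjusted p = 0.0481), with an adjusted p = 0.0532 under quantile normalization. The third probe read 8.94 and 8.71 with BMP2, alone and with LOXL2, against 8.70 untreated and 11.4 with LOXL2, and was not well above background on any array.

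Kdr, the main signalling receptor for Vegfa, did not pass the test with either of its probes. Both were designed on the same transcript, NM_010612, with starts 1086 bases apart on the transcript and on the genome, and their first 30 bases are given because their readings differ. Which of them reads Kdr RNA specifically was not settled here, so each value is that of its probe.
Kdr A_51_P316553: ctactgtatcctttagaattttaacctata
Kdr A_55_P2094469: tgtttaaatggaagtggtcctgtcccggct
The first, at chr5:76329309-76329368 (mm9, minus strand), was printed on 10 spots. Its intensity ran from 206 to 233 over the spots of the BMP2 array and from 235 to 263 with both proteins, against 165 to 195 on the untreated array and 181 to 206 with LOXL2. Divided by the 75th percentile of their array, the spots ran from 0.283 to 0.321 with BMP2 and from 0.316 to 0.354 with both proteins, against 0.232 to 0.274 untreated and 0.250 to 0.285 with LOXL2. On that scale neighbouring arrays overlapped. The fitted change with BMP2 was 0.25 ± 0.06, or 1.19-fold, and missed the threshold (limma adjusted p = 0.107). The second probe, at chr5:76330395-76330454, held nearly 1 level, with intensities of 22308 with BMP2 and 21776 with both proteins, against 22094 untreated and 21842 with LOXL2. Its fitted change was -0.03 ± 0.06 (limma adjusted p = 0.743).

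Vwf, the large glycoprotein of endothelial cells and platelets that tethers platelets to damaged vessels, had the largest rise of the 10 genes, from a low level. Its 2 probes lie 94445 bases apart on the plus strand of mm9 chromosome 6. Their first 30 bases are shown because the 2 signals differ in how far they clear the background.
Vwf A_51_P103397: caagtgaggcctgtgcagctacagcggatt
Vwf A_55_P2169659: tagttaaacagaacaacagtgaagggcgga
The first, at chr6:125636551-125636610, was designed on the RefSeq transcript NM_011708. It read 108 with BMP2 and 118 with both proteins, against 28.0 untreated and 31.8 with LOXL2. All 4 values were well above background, and those with BMP2 lay far above the others. This probe rose by 1.89 ± 0.06 (limma adjusted p = 0.0298), or 3.70-fold. With normexp background correction, which adds a constant of 50 to each signal, the rise was 0.87 on the log2 scale.

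The second Vwf probe, at chr6:125542106-125542165, was designed on an Ensembl transcript. It read 21.0 with BMP2 and 18.8 with both proteins, against 8.16 untreated and 8.82 with LOXL2. It was not well above background on either array without BMP2, where its level was not resolved. The lowest intensity well above background on those arrays was 13.9 untreated and 12.9 with LOXL2. Set at that level, this probe was 1.45-fold higher with BMP2. That is no strict bound, since some probes read higher without being well above background, such as 16.2 for 1 endothelial marker on the untreated array. With normexp its change was 0.21 on the log2 scale. Since it entered the test only through the arrays where it was high, it adds no separate evidence on Vwf.

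Pecam1, an adhesion molecule of endothelium, platelets and leukocytes, did not pass the test, and its fitted change had the opposite sign to that of Vwf. It was printed on 2 spots, which read 177 and 200 with BMP2 and 174 and 214 with both proteins, against 212 and 284 untreated and 231 and 259 with LOXL2. Divided by the 75th percentile of their array, the spots ran from 0.244 to 0.275 with BMP2 and from 0.235 to 0.288 with both proteins, against 0.299 to 0.400 untreated and 0.319 to 0.358 with LOXL2. On that scale the spots with and without BMP2 did not overlap. The fitted change was -0.40 ± 0.06 (limma adjusted p = 0.0575). Where only probes well above background on all 4 arrays were tested, a setting that called 6943 of 31504 probes, the limma adjusted p was 0.0378. Pecam1 passed in 5 of 9 refits, and with no filter on dim probes its limma adjusted p was 0.1735. The probe lies at chr11:106540864-106540923 (mm9, minus strand).

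Further genes of the same system were called in each direction. In a list of 13 further VEGF and angiopoietin genes, chosen with earlier results of these data known, 10 could be tested, and 3 rose and 2 fell with BMP2, against 5.76% and 6.19% of all probes tested, with a median of 0.37. Vegfa, the central angiogenic ligand, had an intensity of 5342 with BMP2 and 5708 with both proteins, against 1779 untreated and 1991 with LOXL2, and rose by 1.52 ± 0.06 (limma adjusted p = 0.0298). Vegfd, the ligand closest to Vegfc, read 5376 with BMP2 and 5375 with both proteins, against 11135 untreated and 10478 with LOXL2, and fell by 1.04 ± 0.06 (limma adjusted p = 0.0321).

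The angiopoietin-like genes also differed among themselves. Angptl6 rose by 1.86 ± 0.14 and Angptl2 rose by 0.73 ± 0.06, while Angptl1 fell by 2.41 ± 0.10 (limma adjusted p from 0.0298 to 0.0369). The receptors Flt4 and Tie1 were not well above background on any array. Tek, the angiopoietin receptor, read 12.5 with BMP2 and 5.41 with both proteins, neither well above background, against 21.5 untreated and 20.6 with LOXL2. With the lowest intensity well above background on the BMP2 arrays as its level there, Tek was 1.48-fold lower with BMP2, which is no strict bound. Its test missed the threshold (limma adjusted p = 0.107).

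**Figure D3:**
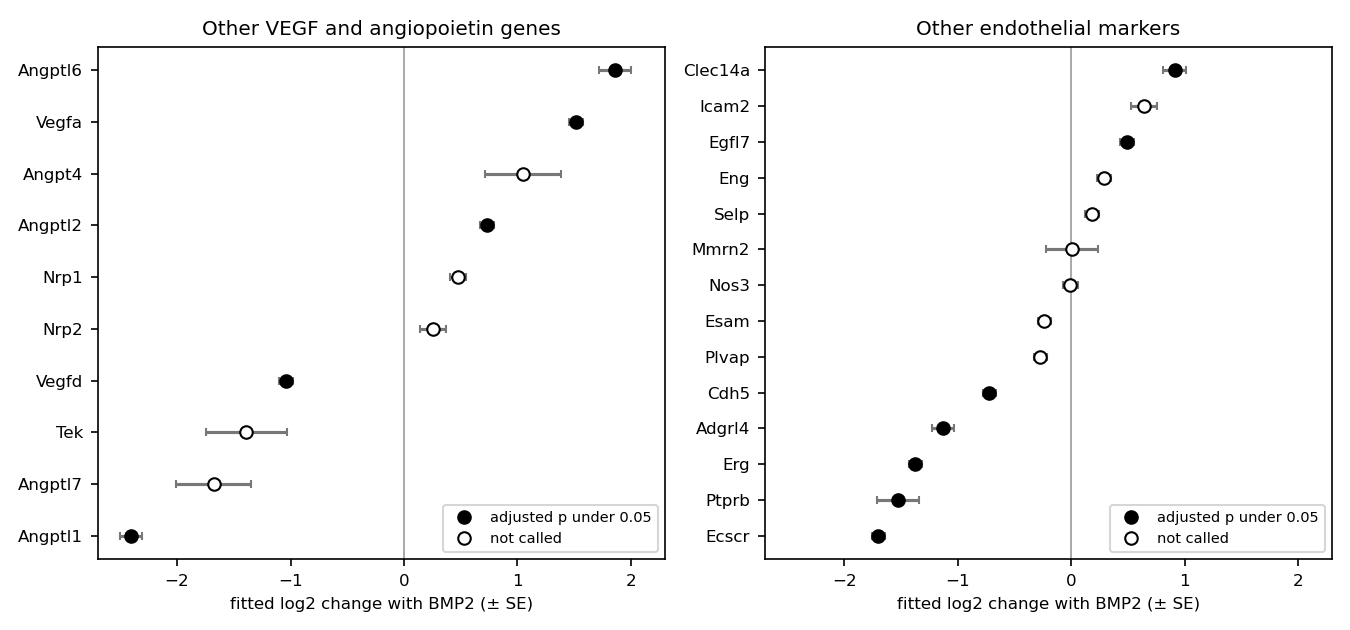
Fitted log2 change with BMP2 ± SE for 10 further VEGF and angiopoietin genes (left) and 14 further endothelial markers (right) that could be tested; filled points have a limma adjusted p under 0.05. Both lists hold filled points on either side of 0, 3 higher and 2 lower on the left, and 2 higher and 5 lower on the right.

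Endothelial markers outside the 10 genes were read beside Vwf and Pecam1, whose fitted changes differed in sign, though that of Pecam1 was not called. Of 22 such markers, 7 were not well above background on any array: Emcn, Cldn5, Sox17, Sox18, Sele, Lyve1 and Prox1. Of the 14 that could be tested, 2 rose and 5 fell, against 5.76% and 6.19% of all probes tested, with a median change of -0.12. The angiogenesis regulator Ecscr fell by 1.70 ± 0.06, the receptor phosphatase Ptprb by 1.52 ± 0.19, the transcription factor Erg by 1.38 ± 0.06 and the adhesion receptor Adgrl4 by 1.13 ± 0.09. The endothelial cadherin Cdh5 read 77.6 with BMP2 and 82.6 with both proteins, against 127 untreated and 131 with LOXL2, and fell by 0.72 ± 0.06 (limma adjusted p = 0.0369). Clec14a, an endothelial lectin, rose by 0.91 ± 0.10 (limma adjusted p = 0.0449). The other that rose, the secreted vessel protein Egfl7, is named after its value was seen, and rose by 0.49 ± 0.06 (limma adjusted p = 0.0489).

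Sums here are of intensities before scaling. The 75th percentile of the arrays was 725.4 with BMP2 and 742.9 with both proteins, against 710.5 untreated and 723.7 with LOXL2. The summed intensity of the 22 endothelial markers was 7155 with BMP2 and 7295 with both proteins, against 6885 untreated and 7067 with LOXL2. The arrays stood in the same order by this sum as by the 75th percentile, so it gives no direction for BMP2. The probes of Egfl7 and Eng held most of that sum. They were left out in a second sum, a choice made after the values were seen. The other 20 summed to 1651 with BMP2 and 1553 with both proteins, against 2800.3 untreated and 2784 with LOXL2, lower with BMP2. Ecscr and Ptprb held most of that difference. Ecscr read 376 with BMP2 and 322 with both proteins, against 1185 untreated and 1027 with LOXL2. In the same order, Ptprb read 198 and 153 against 455 and 523. In whole cultures, fewer cells of a type and less RNA per cell cannot be told apart. Of 11 macrophage and leukocyte markers, 2 fell with BMP2, against 6.19% of all probes tested, and none rose, with a median of -0.46. The mannose receptor Mrc1 fell by 1.55 ± 0.18 and lysozyme, Lyz2, by 0.89 ± 0.07 (limma adjusted p = 0.0474 and 0.036). Their summed intensity was 24276 with BMP2 and 23581 with both proteins, against 27963 untreated and 29638 with LOXL2, and, without Itgam and Csf1r, 1888 and 1628 against 2751 and 2613 in the same order. None of the 11 was below background on every array. Flt1 and Pecam1 are also found on such cells, and their part in the lower Flt1 and Pecam1 values was not tested.

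RefSeq promoter windows (GRCm38.p6) were at hand for 5 of the 10 genes. Windows of Pgf and Vegfb, which rose, and Vegfc and Flt1, which fell, are shown so that the 2 directions can be set side by side. Each holds the 250 bases before an annotated start, 5′ to 3′ on the gene's strand. Capitals mark matches on either strand to GCGTG, a form of the core recognised by hypoxia-inducible factors, and to GGCGCC, a GC-rich site bound by BMP-responsive SMADs; the other core form, ACGTG, was searched too.
Pgf, chr12:85177314-85177563, minus strand: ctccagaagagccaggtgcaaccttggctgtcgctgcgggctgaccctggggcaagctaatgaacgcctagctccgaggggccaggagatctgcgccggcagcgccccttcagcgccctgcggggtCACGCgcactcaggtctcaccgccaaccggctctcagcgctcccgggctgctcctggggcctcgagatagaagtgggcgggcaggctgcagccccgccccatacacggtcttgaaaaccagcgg
Vegfb, chr19:6987652-6987901, minus strand: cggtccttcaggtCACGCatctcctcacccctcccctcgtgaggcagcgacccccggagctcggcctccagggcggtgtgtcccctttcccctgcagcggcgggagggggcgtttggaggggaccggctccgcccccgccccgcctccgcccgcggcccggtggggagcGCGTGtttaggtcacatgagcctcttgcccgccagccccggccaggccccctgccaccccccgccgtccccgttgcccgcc
Vegfc, chr8:54077282-54077531, plus strand: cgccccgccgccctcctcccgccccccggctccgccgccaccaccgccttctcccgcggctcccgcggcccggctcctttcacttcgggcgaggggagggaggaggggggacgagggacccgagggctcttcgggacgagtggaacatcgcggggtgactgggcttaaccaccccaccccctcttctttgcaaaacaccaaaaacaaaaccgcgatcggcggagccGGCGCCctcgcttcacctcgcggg
Flt1, chr5:147726012-147726261, minus strand: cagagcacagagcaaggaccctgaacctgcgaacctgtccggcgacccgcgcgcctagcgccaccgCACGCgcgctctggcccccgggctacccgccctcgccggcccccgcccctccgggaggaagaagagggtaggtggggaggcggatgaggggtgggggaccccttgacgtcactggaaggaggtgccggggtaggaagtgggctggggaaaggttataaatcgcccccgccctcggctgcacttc

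GCGTG was found in the windows of Pgf, Vegfb and Flt1, once in Pgf and Flt1 and at 2 places in Vegfb, while the Vegfc window held GGCGCC at 1 place. ACGTG was in none of the 4 windows. Over all 32851 promoter windows of the same length, 28.2% held GCGTG, 16.6% held ACGTG and 9.59% held GGCGCC. Those shares were not matched for GC content, which was 68.4% in the printed Pgf window, 76.4% in Vegfb, 71.6% in Vegfc and 70.4% in Flt1. A second Pgf window, not printed, held GGCGCC at 1 place, and that of Kdr held GCGTG at 2 places. GCGTG and GGCGCC each occurred in windows of genes of both directions. The matches describe letters only, and binding was not measured.

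LOXL2 moved no member probe past the threshold. In limma, 0 of 33976 probes were called for LOXL2 (0% of all probes tested), with 1955 at an unadjusted p under 0.05, none of them a member probe. With trend and robust settings, 71 probes of the array were called, and 0 were members. Fitted changes of the 13 member probes ran from -0.19 to 0.21, with SE from 0.06 to 0.12 and limma adjusted p from 0.825 to 0.99. Over all probes tested the median LOXL2 change was close to 0, and over the member probes it was -0.01.

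**Figure D4:**
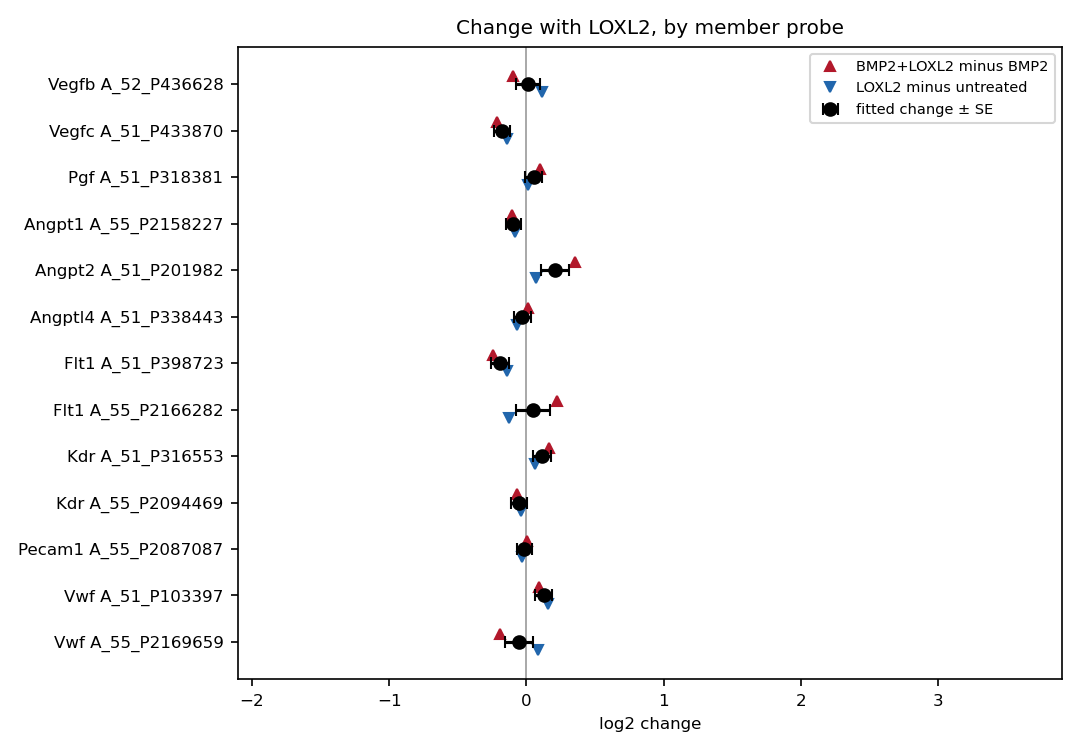
Log2 change with LOXL2 for the 13 member probes, on the same axis as the plot of the BMP2 change. Black points are fitted changes with SE bars, and triangles are the 2 pairs of arrays, BMP2 with LOXL2 minus BMP2 and LOXL2 minus untreated. All fitted changes lie between -0.19 and 0.21.

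The highest of these values was that of Angpt2. It was 6367 with LOXL2 and 6987 with both proteins, against 5956 untreated and 5350 with BMP2, a fitted change of 0.21 ± 0.10 (limma adjusted p = 0.825). The LOXL2 difference was 0.35 under BMP2 and 0.07 without it. The lowest was that of the RefSeq Flt1 probe, -0.19 ± 0.06 (limma adjusted p = 0.825), with differences of -0.24 under BMP2 and -0.14 without it. Vegfc followed with -0.18 ± 0.06 (limma adjusted p = 0.825) and differences of -0.21 under BMP2 and -0.14 without it.

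Whether LOXL2 altered the response to BMP2 was read from the difference between the 2 BMP2 differences, under LOXL2 minus without it. An altered response cannot be told apart from error between arrays in this difference, which has no test in this design. It is the only residual of the additive fit. It was 0.35 for the Ensembl Flt1 probe, 0.28 for Angpt2 and -0.22 for Vegfb. For Vegfc it was -0.07, for Angpt1 -0.02, for Pgf 0.08 and for the brighter Vwf probe -0.07. The sign of the BMP2 difference was shared by both pairs for 12 of the 13 probes, against 77.7% of all probes tested, and Angpt2 was the exception.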

How the data were processed

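RNA from 4 cultures was measured on 4 arrays of 1 slide with 1 scan time, per the file headers. The deposited scanner files hold spot intensity values that the authors made with Agilent Feature Extraction (version 10.7.3.1 by the submitters' processing notes), with background subtraction, removal of spatial trends and surrogate values for signals not above background, per the file headers. The value table, also deposited, holds the same intensity values averaged per probe, within 0.1% for 99.52% to 99.53% of probes.

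Outlier spots, 109 to 144 on each array, were dropped, and saturation was not flagged anywhere. Log2 intensity minus the array's 75th percentile was averaged per probe. Probes well above background on at least 2 arrays entered an additive model of BMP2 and LOXL2 in limma 3.58.1 (R 4.3.3, data.table version 1.17.8), two-sided, with a threshold of 0.05 and 1 residual and 1.69 prior degrees of freedom. For list genes, the probe with the highest mean stood for the gene. The number of arrays limits all precision. Position on the slide and treatment cannot be told apart.

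All probes of the 10 genes are named. Of the list genes, the plan was to name Vegfa and, per list, up to 6 genes that passed the test, by size. Other list genes, such as Egfl7, Eng, Tek, Itgam, Csf1r, Col1a2, Spp1 and those below background, are named outside that plan. Lists were other VEGF and angiopoietin genes and markers of endothelium, macrophages and leukocytes, mural cells and osteoblasts. The members and lists were chosen with earlier results of these data known. Alternatives covered background correction, normalization, the filter, the variance model, the design, the use of deposited values and single pairs of arrays. Probe positions are on mm9, per the file headers. Genome annotation of that build was not used here.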

Additional observations from a re-analysis of the deposited data

Results flagged for a closer look

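For 5 results, the 2 pairs of arrays that measure one protein gave opposite signs among the 12 probes well above background on all arrays. None of these differences was tested, since each pair holds 2 arrays. The BMP2 difference of Angpt2 was 0.10 under LOXL2 and -0.18 without it. The LOXL2 difference under BMP2 and without it was -0.10 and 0.12 for Vegfb, and 0.0095 and -0.070 for Angptl4. It was 0.23 and -0.13 for the Ensembl Flt1 probe, and 0.0025 and -0.032 for Pecam1. Over all probes above background on every array, 21.5% had opposite BMP2 signs and 45.2% opposite LOXL2 signs.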

How the results depend on the processing

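The 8 member probes called for BMP2 kept their direction under all 9 refits that could give them. Only background correction, normalization and the deposited values could alter a fitted change, since the other refits leave it as it was. The 8 probes stayed called except in 2 settings. With no filter on dim probes 0 were called, adjusted p for the 8 probes running from 0.125 to 0.145, and with quantile normalization the call was lost for Vegfb and the Ensembl Flt1 probe. The dimmer Vwf probe could not enter where all 4 arrays had to be above background, nor where 1 probe stood for each gene, which also left out the Ensembl Flt1 probe. Over all probes the number called for BMP2, 4060 here, was 11584 with normexp background correction, 13738 with trend and robust settings, 8332 with LOXL2 left out of the model, 6943 with probes above background on all arrays and 0 with no filter. Angptl4 and Pecam1 passed the threshold with normexp, with the filter on all arrays, with 1 probe per gene, with trend and robust settings and with LOXL2 left out of the model. Under median centring, the uncalled BMP2 changes of Angpt2 and the brighter Kdr probe turned positive, to 0.0061 and 0.021. The uncalled LOXL2 change of the brighter Vwf probe was -0.042 with normexp, and that of Vegfb -0.0021 with quantile normalization. LOXL2 called 0 member probes in every refit. Single pairs of arrays have no test and gave no count. No fit with a replicate block could be made, since each treatment was measured on 1 array, and the additive model itself compares 2 pairs of arrays. Signal near background limits the dimmer Vwf probe, Tek and the third Flt1 probe, whose low values are not resolved.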

Other observations

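Markers of mural cells, which wrap small vessels, had a median BMP2 change of 0.53 over the 6 of 8 that could be tested. Of these, 1 rose, against 5.76% of all probes tested. The others tested were not called, and their changes ran from -0.26 to 1.18. The proteoglycan Cspg4, also found on skeletal progenitors, had an intensity of 6422 with BMP2 and 7322 with both proteins, against 2686 untreated and 3010 with LOXL2. It rose by 1.24 ± 0.06 (limma adjusted p = 0.0298). Kcnj8 and Abcc9, which mark pericytes, were not well above background on any array.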
